A study of Platichthys stellatus with 16 samples.

Results

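Hemoglobin and carbonic anhydrase transcripts were followed through the brain, liver, gonad and muscle of the starry flounder, the flatfish Platichthys stellatus, in both sexes. The members were found by annotated name: hbaa, hbb1 and cahz each matched 1 assembled gene, 3 of the 16270 in the deposited table. The fish were 3 years old and no treatment or strain is named for them. The 8 groups are female brain, female liver, female gonad, female muscle, male brain, male liver, male gonad and male muscle, with 2 libraries each and 16 in all, numbered 1 and 2 as in the sample labels. The labels do not say which fish gave which library, so the p-values reflect only how far these samples spread, which may be technical. The series text speaks of 3 females and 3 males, and names pituitary where the sample labels name muscle.

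Hemoglobin carries oxygen in red blood cells and is built from alpha and beta chains that each hold a heme. Fish red cells keep their nucleus and, when young, their globin messenger RNA, so blood left in a dissected tissue brings globin RNA with it. Carbonic anhydrase speeds the exchange between carbon dioxide and bicarbonate, and the zebrafish gene cahz is known for its activity in red cells. In bulk tissue, fewer red cells and less globin RNA per cell cannot be told apart.

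The alpha chain feature hbaa (TRINITY_DN133494_c0_g3, 574 bases) was annotated by its closest match as the alpha 1-globin of the European flounder, Platichthys flesus. The beta chain feature hbb1 (TRINITY_DN131083_c4_g2, 491 bases) matched the beta 2-globin of the same species. The third, cahz (TRINITY_DN140444_c3_g2, 4007 bases), matched a carbonic anhydrase of zebrafish by protein and a red blood cell carbonic anhydrase II of red drum by nucleotide, while its protein domain field names a sea anemone toxin family. The length over which its reads were counted, implied by count and FPKM, was 569 to 889 bases across libraries, far below the 4007 listed. For hbaa that length was 288 to 333 bases and for hbb1 186 to 241. Among the 70.4% of features that carry a gene name, 0 of 19 other globin symbols matched. The descriptions of all features, named or not, were also searched for hemoglobin or carbonic anhydrase. Outside the members this gave 3 features, all described as carbonic anhydrases. Features without a name were not searched for globins described by other words.

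Levels are given as the authors' FPKM, fragments scaled by library size and by the length over which reads were counted. That length was well below the listed one for all 3 members, most of all for cahz. Levels of different genes can therefore be compared only roughly. The lowest FPKM of any gene in any library was 0.31, so every listed gene has a level above 0 in every library. The table holds an estimated 51.4 to 80.7% of the fragments of a library. Gene symbols reported as not matched are absent from this table, and may still be expressed in these tissues. Estimated counts in the table summed to 5134221 to 12972574 per library. The labelled tissues were checked against marker lists. Summed FPKM of the 8 hepatocyte features was 39600 to 87900 in liver and at most 160 elsewhere, and that of the 7 skeletal muscle features was 42900 to 288000 in muscle and at most 1020 elsewhere. Of the 5 neuron and glia features, MBP and gja1 were higher in brain than in the mean of the other tissues. The other 3 did not set brain apart: ENO2 was higher in muscle (7.73), and Mag reached 45.68 in male muscle 2 against at most 4.17 in brain. For slc17a7 the scaled counts were higher in muscle (1.17). Its FPKM, however, stood at 23.77 to 37.19 in brain, 9.1 to 30.64 in muscle and up to 36.71 in male gonad. The 5 together summed to 390 to 2210 in brain and up to 17200 elsewhere, and without ENO2 to 316 to 2180 and at most 88.6. The 1 matched gonad feature, odf3, stood at 47.9 to 53.0 in gonad and at most 4.35 elsewhere, and the egg and germ cell genes of that list (zp3, ddx4 and others) were not matched.

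**Figure D1:**
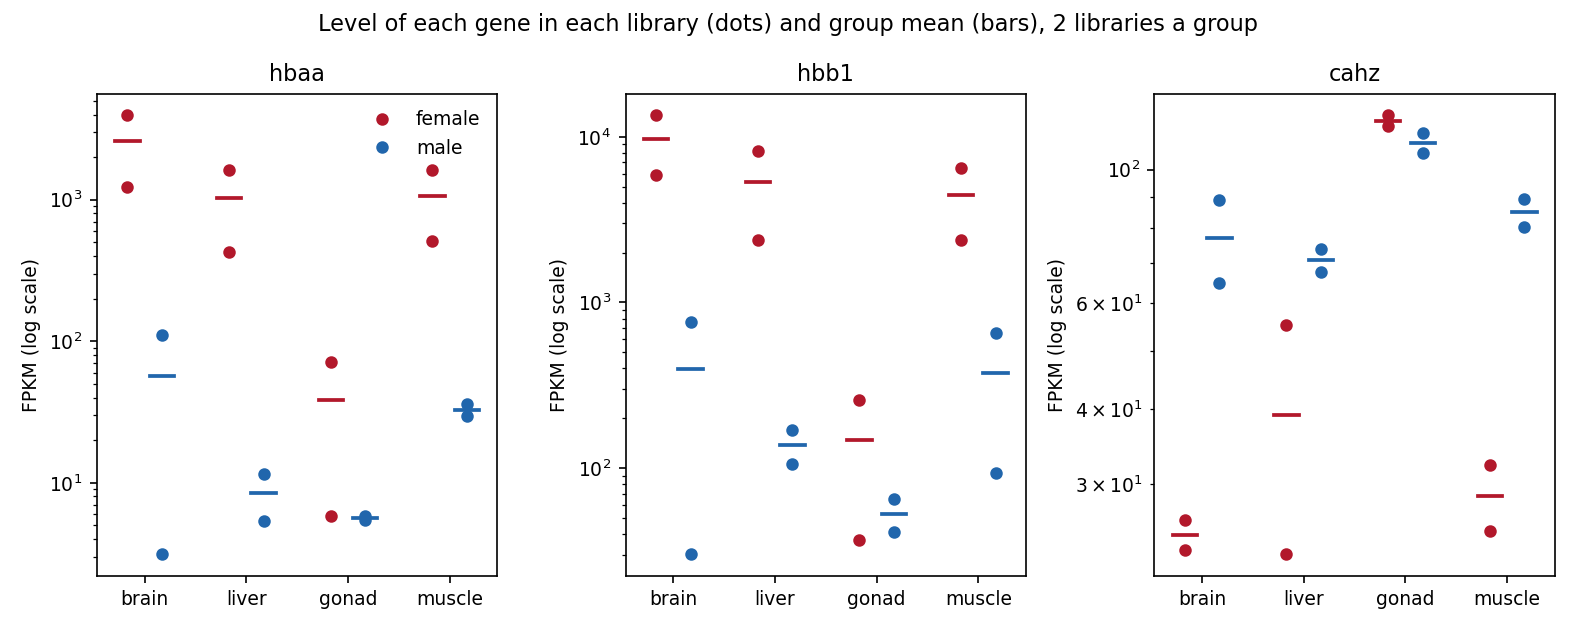
FPKM of hbaa, hbb1 and cahz on log scales in each of the 16 libraries (dots: libraries, bars: means of the 2 libraries of a group, red: female, blue: male). Both hemoglobin chains stand higher in female than in male brain, liver and muscle with no overlap, while cahz stands lower in females in the same 3 tissues.

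The alpha chain was most abundant in female brain, liver and muscle. In brain, hbaa stood at 1236.85 and 3941.09 FPKM in the female libraries and at 3.15 and 111.23 in the male ones. In liver it stood at 425.1 and 1630.21 in females and at 11.49 and 5.34 in males. In muscle it stood at 514.09 and 1619.3 in females and at 29.59 and 35.97 in males. The sexes did not overlap in any of these 3 tissues, and the lowest female library exceeded the highest male library 11.1-fold in brain, 37-fold in liver and 14.3-fold in muscle. Both female libraries were above both male ones in 27.3% of all features in brain, 17.5% in liver and 6.42% in muscle. In gonad, hbaa stood at 5.78 and 71.05 in females and at 5.85 and 5.42 in males, and the sexes overlapped there.

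The beta chain showed the same order of sexes at a higher level. In brain, hbb1 stood at 5905.8 and 13467.19 FPKM in females and at 30.42 and 760.38 in males. In liver it stood at 8242.6 and 2374.09 in females and at 106.37 and 169.44 in males. In muscle it stood at 2394.66 and 6487.14 in females and at 93.73 and 656.6 in males. As for the alpha chain, the sexes did not overlap in these 3 tissues, by 7.77-fold in brain, 14-fold in liver and 3.65-fold in muscle between the nearest libraries. In gonad hbb1 stood at 36.59 and 258.74 in females and at 41.42 and 64.78 in males, which overlapped. By rank of FPKM among all 16270 features, hbb1 was 15th in female brain 2 and 4412th in female gonad 1.

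Carbonic anhydrase did not follow the hemoglobins. In brain, cahz stood at 23.31 and 26.17 FPKM in females and at 88.97 and 64.72 in males. In liver it stood at 23.02 and 55.17 in females and at 67.56 and 73.78 in males, and in muscle at 32.27 and 25.15 in females and at 89.41 and 80.32 in males. The males were thus the higher sex in these 3 tissues with no overlap, as they were in 48.7% of all features in brain, 28.1% in liver and 43.1% in muscle. In gonad, where cahz was most abundant by FPKM, it stood at 122.99 and 118.01 in females and at 106.61 and 114.9 in males. By FPKM the females were thus higher there, again with no overlap, as in 25.6% of all features. The nearest libraries differed only 1.03-fold. As shares of all fragments the sexes overlapped, at 0.007 and 0.00676% in female against 0.00693 and 0.00714% in male gonad. The implied length of cahz was shorter in female gonad (569 and 573 bases) than in male gonad (650 and 621). Against the name red-cell carbonic anhydrase, cahz was 3.11-fold higher by mean FPKM in male than in female brain, where hbaa was 45.3-fold lower.

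Of the 3 members, 2 stood higher in both female than in both male libraries by FPKM in each of brain, liver and muscle, as did 1.84% of all features. The remaining member, cahz, stood lower in females in each of them, as did 9.7% of all features.

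The sexes were then tested within each tissue with edgeR's quasi-likelihood test on counts from all 16 libraries, with p-values adjusted by Benjamini-Hochberg over 16270 features. Differences are log2, female minus male, ± SE, with an SE derived from edgeR's F. In brain both hemoglobin chains were higher in females, hbaa by 6.11 ± 1.54 (adjusted p = 0.01) and hbb1 by 5.22 ± 1.43 (adjusted p = 0.014). That of hbaa was the largest log2 increase toward females of any feature in brain and that of hbb1 ranked 6th. The 2 male brain libraries differed 35.3-fold in hbaa and 25-fold in hbb1, against a median of 1.33-fold over all features. Without male brain 1 hbb1 no longer passed (adjusted p = 0.061), and the difference of hbaa ranged from 4.95 to 10.11 over the 4 fits that each left out 1 brain library. For cahz the difference was -0.88 ± 0.36 (adjusted p = 0.066), and it passed at -1.44 (adjusted p = 0.013) with libraries scaled by total fragments in place of TMM. In brain 39.8% of all features passed in either direction, so 2 of 3 members is read against a high background.

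In liver hbaa was higher in females by 7.28 ± 1.64 (adjusted p = 0.037), the third largest increase of any feature, against 2.78% of features passing. For hbb1 the difference was 5.68 ± 1.47 (adjusted p = 0.054) and ranked 10th, and for cahz it was -0.59 ± 0.36 (adjusted p = 0.34). The call for hbaa ended when female liver 1 or either male liver library was left out (adjusted p = 0.2, 0.19 and 0.21), and hbb1 passed without female liver 2 (6.42, adjusted p = 0.018).

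In muscle edgeR called 0 of 3 members, against 2.96% of all features. Before adjustment 2 had p below 0.05. DESeq2 called 2, hbaa and hbb1, both higher, and limma on log2(FPKM + 1) called 2, hbaa higher and cahz lower. There hbaa differed by 5.81 ± 1.52 (adjusted p = 0.055), the largest value toward females of any feature, hbb1 by 4.61 ± 1.39 (adjusted p = 0.09) and cahz by -0.72 ± 0.36 (adjusted p = 0.28).

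In gonad edgeR called 0 of 3 (1 had p below 0.05 before adjustment, 1 by DESeq2 and 0 by limma), against 47.1% of all features. The values were 3.32 ± 1.4 for hbaa (adjusted p = 0.065), 1.84 ± 1.25 for hbb1 (adjusted p = 0.24) and 0.67 ± 0.36 for cahz (adjusted p = 0.14), and that of cahz turned to -0.03 (adjusted p = 0.95) with libraries scaled by total fragments. Those of the hemoglobins rested on female gonad 2, which stood 12.3-fold above female gonad 1 in hbaa. Without it they were 0.57 for hbaa (adjusted p = 0.79) and -0.17 for hbb1 (adjusted p = 0.94), and without female gonad 1 hbaa passed at 4.2 (adjusted p = 0.036).

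**Figure D2:**
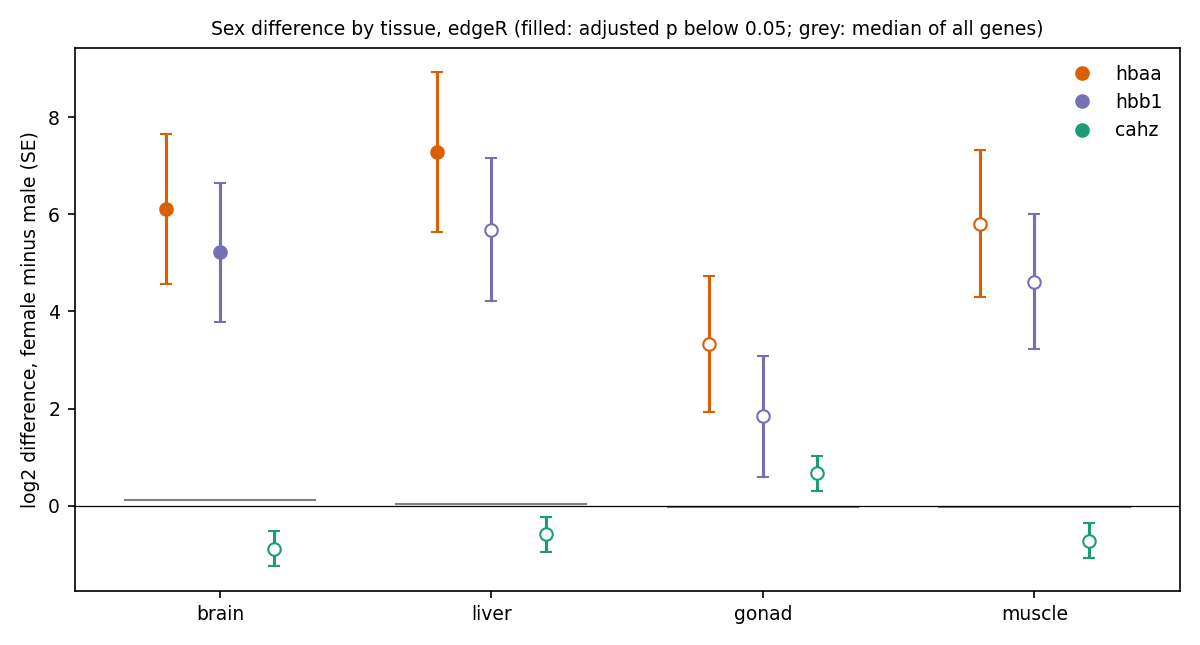
Log2 difference between female and male libraries of each tissue for hbaa, hbb1 and cahz by edgeR (points: difference, bars: SE, filled where adjusted p is below 0.05, grey lines: median of all features). The hemoglobin values lie between 4.61 and 7.28 in brain, liver and muscle, while cahz lies below 0 there and above 0 in gonad.

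The mean of the sex differences in brain, liver and muscle was compared as well, a choice made after the values were seen. It came to 6.4 ± 0.9 for hbaa (adjusted p = 0.0011), 84.4-fold, and to 5.17 ± 0.83 for hbb1 (adjusted p = 0.0016), 36-fold. These were the largest and the second largest increases toward females among all 16270 features. For cahz the mean was -0.73 ± 0.21 (adjusted p = 0.017). The test treats libraries as independent, but the labels do not say whether the tissues came from the same fish. If they did, these SE and p-values may be too small. All 3 members passed, 2 higher and 1 lower, against 36% of all features (19.4% higher and 16.6% lower, a split of calls that moved from 54 to 18.2% higher with libraries scaled by total fragments). They passed in each of the 12 fits that left out 1 library (adjusted p at most 0.0062 for hbaa, 0.0088 for hbb1 and 0.049 for cahz).

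Whether the sex difference itself varied between tissues was tested by interactions. That in liver against the mean of the other tissues was 2.2 ± 1.5 for hbaa (adjusted p = 0.57), 1.79 ± 1.41 for hbb1 (0.63) and -0.28 ± 0.41 for cahz (0.82), the last turning to 0.15 (adjusted p = 0.89) with libraries scaled by total fragments. By edgeR 0 of 3 members passed, also at an unadjusted p below 0.05 and by DESeq2 and limma, against 0.258% of all features. That in gonad against the mean of brain, liver and muscle, also chosen after the values were seen, was -3.08 ± 1.56 for hbaa (adjusted p = 0.14), -3.33 ± 1.46 for hbb1 (adjusted p = 0.09) and 1.4 ± 0.41 for cahz (adjusted p = 0.019). By edgeR 1 of 3 members passed, cahz, against 35.7% of all features. The call for cahz ended without any 1 of the 4 gonad libraries (adjusted p = 0.05 to 0.08), and with libraries scaled by total fragments (1.14, adjusted p = 0.064). The hemoglobin results here also depended on single libraries. Without male brain 2 the values were -5.76 for hbaa and -5.28 for hbb1, and the call for hbaa changed without female gonad 2 as well.

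The tissues were then ordered. By mean FPKM of 2 libraries, hbaa was highest in female brain (2589 ± 1912 SD), then female muscle (1067 ± 782) and female liver (1028 ± 852), and these neighbours overlapped. A gap followed to male brain (57.2 ± 76.4), female gonad (38.4 ± 46.2) and male muscle (32.8 ± 4.51), which overlapped each other in turn. Male liver (8.41 ± 4.35) and male gonad (5.635 ± 0.304) came last, and they overlapped each other.

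For hbb1 the order was female brain (9686 ± 5347 SD), female liver (5308 ± 4149.7) and female muscle (4441 ± 2894), all overlapping. Male brain (395 ± 516), male muscle (375 ± 398), female gonad (148 ± 157) and male liver (138 ± 44.6) followed after a gap, each overlapping the next, and male gonad (53.1 ± 16.5) stood last and apart from male liver. The order for cahz ran nearly the other way, from female gonad (120.5 ± 3.52) and male gonad (111 ± 5.86), which did not overlap, through male muscle (84.9 ± 6.43), male brain (76.8 ± 17.1) and male liver (70.7 ± 4.4), which overlapped each other in turn. Female liver (39.1 ± 22.7), female muscle (28.7 ± 5.04) and female brain (24.7 ± 2.02) were lowest, separate from male liver and each overlapping the next.

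Gonad held the least hemoglobin RNA as a mean over both sexes. It was lower than the mean of the other 3 tissues by -4.85 ± 0.99 in hbaa (adjusted p = 0.00086), 28.8-fold, and by -5.03 ± 0.96 in hbb1 (adjusted p = 0.00053), 32.6-fold. By FPKM, both chains were lower in female gonad than in every other female library. In males hbaa in gonad (5.85 and 5.42) overlapped liver (11.49 and 5.34) and was above male brain 1 (3.15). Male gonad hbb1 (41.42 and 64.78) was below liver and muscle but above male brain 1 (30.42). Among all 16270 features hbaa ranked 33rd and hbb1 23rd from the largest decrease. Both passed in each of the 16 fits that left out 1 library (adjusted p at most 0.008 and 0.0063). Lower in gonad were 2 of 3 members, against 60.2% of all features passing and 30.7% passing as lower. The share of higher among calls was 49%, and 85.7% with libraries scaled by total fragments. For cahz gonad differed by -0.05 ± 0.21 (adjusted p = 0.86), and this turned to 1.05 (adjusted p = 0.00041) with libraries scaled by total fragments, a scaling that moved the median over all features in this comparison from -0.08 to 1.01. Relative to that median, cahz was therefore near 0 under both scalings.

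Brain was above the mean of the other tissues by 2.14 ± 0.66 in hbaa (adjusted p = 0.019) and 1.7 ± 0.64 in hbb1 (adjusted p = 0.046), and below it by -0.78 ± 0.22 in cahz (adjusted p = 0.011). Gonad, with its low hemoglobin, is part of the mean that brain was set against. The hemoglobin values of brain and gonad are therefore not separate results, and brain was not tested against liver and muscle alone. All 3 members passed in brain by edgeR, against 43.2% of all features. By limma 0 of 3 passed (adjusted p = 0.063, 0.12 and 0.066 for hbaa, hbb1 and cahz), and by DESeq2 hbb1 did not (adjusted p = 0.052). Neither hemoglobin passed without female brain 2 (1.71, adjusted p = 0.11, and 1.46, adjusted p = 0.15) or without male brain 2 (0.1, adjusted p = 0.94, and -0.13, adjusted p = 0.9). That of hbb1 was lost in 10 of 16 such fits, and cahz did not pass without female brain 1 (adjusted p = 0.057), without male brain 2 (adjusted p = 0.091) or with libraries scaled by total fragments (-0.39, adjusted p = 0.19).

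Muscle was above the mean of the other tissues by 1.95 ± 0.67 in hbaa (adjusted p = 0.03) and 1.88 ± 0.64 in hbb1 (adjusted p = 0.028), with 0.4 ± 0.2 in cahz (adjusted p = 0.13), which turned to -0.35 with libraries scaled by total fragments. Against 45.1% of all features, 2 of 3 members passed. Gonad is likewise part of the mean that muscle was set against, and muscle was not tested against brain and liver alone. Neither hemoglobin passed without female muscle 2 (1.31, adjusted p = 0.21, and 1.33, adjusted p = 0.18) or with libraries scaled by total fragments (1.21, adjusted p = 0.12, and 1.26, adjusted p = 0.099), nor by limma (adjusted p = 0.1 and 0.16). In addition hbb1 did not pass without male muscle 2 (1.23, adjusted p = 0.2), nor hbaa without male muscle 1, female brain 1 or male liver 2 (adjusted p = 0.089, 0.051 and 0.05). In liver edgeR called 0 of 3 (1 had p below 0.05 before adjustment, 0 by DESeq2 and 0 by limma), against 46.2% of features. The values there were 0.76 ± 0.71 for hbaa (adjusted p = 0.41), which turned to -0.08 with libraries scaled by total fragments, 1.45 ± 0.65 for hbb1 (adjusted p = 0.083) and 0.42 ± 0.2 for cahz (adjusted p = 0.1), which turned to -0.3.

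The chains were next set against each other within libraries. Together hbaa and hbb1 made up 0.418% of all fragments in female brain 2 and 0.0007% in male brain 1, the highest and the lowest library. Over the 6 libraries of female brain, liver and muscle, log2 FPKM of hbaa and hbb1 had a Pearson r of 0.99 and a Spearman rho of 1, and over the other 10 libraries 0.84 and 0.76. For hbaa and cahz the same values were -0.73 and -0.6 in the 6, and -0.28 and -0.19 in the other 10. On the scale of log2 CPM (counts scaled to library size) with TMM, r of hbaa and cahz was -0.5 in the 6 and 0.28 in the 10, so the sign among the 10 depended on the scale. The values of a library share its depth and scaling, and these correlations are descriptions.

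**Figure D3:**
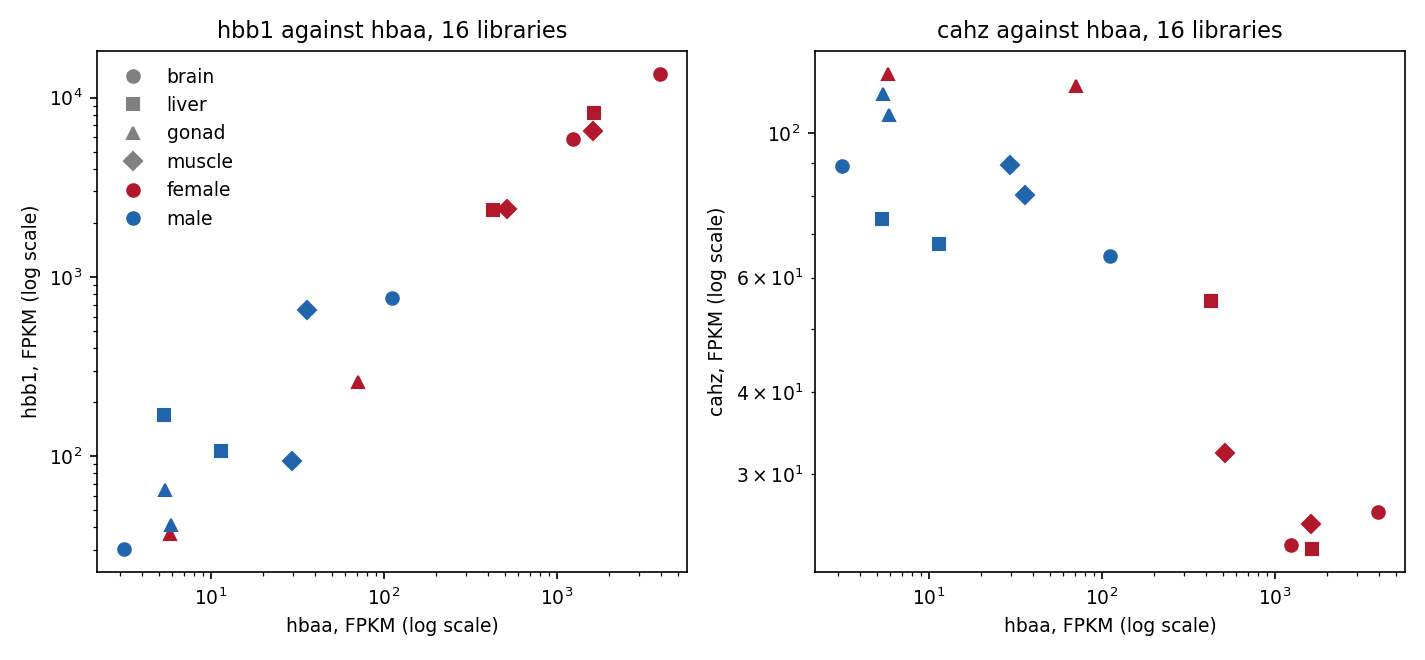
FPKM of hbb1 (left) and cahz (right) against hbaa on log scales, 1 point per library (shape: tissue, colour: sex). Over the 16 libraries the beta chain mostly climbs with the alpha chain. Within male liver and within male gonad, however, the library with less hbaa has more hbb1. The 6 female brain, liver and muscle libraries combine the highest hbaa with cahz levels of 23.02 to 55.17.

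The proportion of the chains was not constant. By counts, hbb1 was 69.9 to 79.0% of hemoglobin in the 6 libraries of female brain, liver and muscle, the highest being female liver 2 (exact 95% interval 78.1 to 80.0). In male brain, liver and muscle it was 67.9 to 95.8%. The lowest of these was male muscle 1 at 67.9% (exact 95% interval 62.7 to 72.8), from 237 counts of hbb1 and 112 of hbaa. The highest was male liver 2 at 95.8% (93.9 to 97.2), from 611 and 27 counts. Male muscle 2 stood at 92.8% (91.5 to 93.9), so the 2 male muscle libraries differed by more than their counting intervals. The shares of the male brain, liver and gonad libraries, at 82.8 to 95.8%, were above those 6, but the intervals of male brain 1 (78.6 to 92.5) and male gonad 1 (77.6 to 89.0) overlapped that of female liver 2. The female gonad libraries stood at 80.3 and 69.8%. These intervals cover counting error only.

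**Figure D4:**
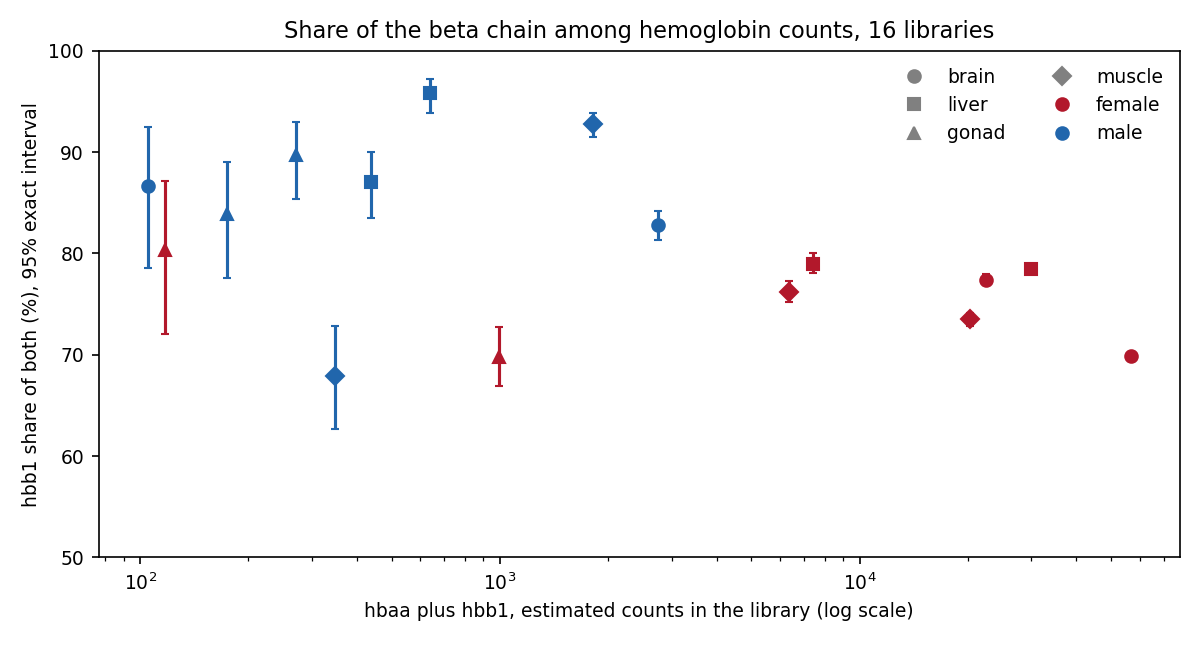
Share of hbb1 among hbaa plus hbb1 counts (percent, bars: exact 95% interval) against the sum of both counts on a log scale, 1 point per library (shape: tissue, colour: sex). The 6 female brain, liver and muscle libraries, which hold the most hemoglobin counts, lie between 69.9 and 79.0%, and male liver 2 reaches 95.8%.

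Genes that serve the red cell were counted from lists, beside the mean sex difference over brain, liver and muscle (36% of all features passed). Of 14 features of heme synthesis, 5 were higher in females and 2 lower, with a median of 0.21 against 0 over all features, while limma on FPKM called 4 higher and 5 lower. Those higher were Uros and UROS, neighbouring features of uroporphyrinogen III synthase (1.19 ± 0.34 and 2.02 ± 0.34), Ppox and PPOX of protoporphyrinogen oxidase (1.5 ± 0.23 and 1.38 ± 0.3), and the mitochondrial transporter ABCB10 (1.74 ± 0.36). Those lower were FECH, ferrochelatase, which inserts the iron to form heme (-1.26 ± 0.37, adjusted p = 0.021), and alas1, the general form of the first enzyme of the pathway (-1.1 ± 0.28, adjusted p = 0.011). A neighbouring feature of the same gene, ALAS1, did not pass, and it stood at 157.86 FPKM in female brain 1 against 11.98 for alas1. The red-cell form alas2 was not matched.

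Of 11 features of the red cell membrane and gas exchange, 4 were higher and 0 lower. On FPKM limma called 2 higher and 2 lower. All 4 were annotated as ankyrin 1, an anchor of the membrane skeleton (1.43 to 1.91, adjusted p at most 0.013). The same 4 were higher in brain than in the mean of the other tissues, by 2.79 to 3.32. The anion exchanger slc4a1, which defines the red cell membrane, was not matched. Of 12 iron features 1 was higher, FTH1, a ferritin that stores iron (1.51 ± 0.34), and 2 were lower, both slc25a28, mitoferrin 2. Another FTH1 feature and another slc25a28 feature did not pass. Of 3 features of erythroid transcription, all annotated as LDB1, 1 was higher (1.09) and 1 lower, and gata1 and klf1 were not matched. Of 9 antioxidant and maturation features, BLVRB was higher and BNIP3L lower (-1.04 ± 0.25), while another BNIP3L feature did not pass. Of 5 clearance features 2 were higher, hpx and Blvra, where limma called 0. The difference of hpx, which binds free heme in plasma and is also a hepatocyte gene, was 1.73 ± 0.63 (adjusted p = 0.044). Its mean FPKM in liver was 8115.01 in females and 8755.06 in males. In brain hpx stood at 10.53 and 0.94 in females against 0.63 and 0.97. Blvra, biliverdin reductase A, differed by 1.09 ± 0.2. It stood at 48.13 and 75.81 FPKM in female against 13.2 and 15.49 in male liver. In brain Blvra stood at 41.61 and 39.35 FPKM in females against 50.04 and 57.32 in males.

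Beside the hemoglobins in gonad, against the mean of the other tissues (60.2% of all features passed, 30.7% as lower), the lists gave further counts. Of 9 antioxidant and maturation features 7 were lower and 0 higher there, among them BLVRB (-1.83 ± 0.43, adjusted p = 0.0022). Of 5 clearance features 5 were lower. By limma on FPKM these lists gave 6 lower and 1 higher, and 4 lower and 0 higher. Liver is part of the mean that gonad was set against. In liver 6 of these 9 and 5 of these 5 features were higher than in the mean of the other tissues by edgeR. Of 11 membrane features 6 were lower and 3 higher by edgeR, but 4 lower and 5 higher by limma. Of 14 heme synthesis features 6 were lower and 1 higher by edgeR, but 0 lower and 5 higher by limma on FPKM, and of 12 iron features 4 were lower and 3 higher by edgeR, but 1 lower and 8 higher by limma. The balance of the membrane, heme and iron lists in gonad thus differed between edgeR on counts and limma on FPKM, which differ in both test and scaling. Both hemoglobins were lower by edgeR, DESeq2 and limma.

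Other cells of blood and its vessels were listed too. Of 6 features of endothelium, which lines blood vessels, 6 were lower in gonad than in the mean of the other tissues by edgeR, against 30.7% of all features. By limma 2 were lower. Among males the list summed to 62.85 and 113.32 FPKM in gonad, 32.93 and 35.42 in liver and 89.55 and 94.5 in muscle. In brain, where 39.8% of all features passed, 3 of the 6 were higher in females, EGFL7 (3.05 ± 0.76, adjusted p = 0.0099), ESAM (2.36 ± 0.46) and kdr (2.23 ± 0.64), and their list summed to 261.36 and 330.2 FPKM in female and 60.91 and 70.2 in male brain. In gonad, where 47.1% of all features passed, 4 of the 6 were higher in males, and the sum was 5.73 and 15.38 FPKM in females and 62.85 and 113.32 in males, where neither hemoglobin was called. By edgeR 0 of 6 leukocyte features differed in the mean over brain, liver and muscle, also at an unadjusted p below 0.05 and by DESeq2 and limma. The list summed to 222.46 to 7737.28 FPKM in the 6 female and 271.78 to 1909.25 in the 6 male libraries of these tissues. Both maxima lay in liver and came mostly from 1 feature named LCP1, whose description is that of a digestive cysteine proteinase. That feature stood at 7529.57 FPKM in female liver 2 and at 1698.37 in male liver 1, so these maxima do not measure leukocytes. The 1 thrombocyte feature, FERMT3, did not pass. In the same mean over tissues 36% of all features passed and 19.4% passed as higher in females. There 5 of 7 skeletal muscle features were higher in females (1.63 to 2.49), as were 2 of 8 hepatocyte features (c3 and hpx) and MBP of the neuron and glia list (1.32). In liver alone edgeR called 0 of 8 hepatocyte features between the sexes (median -0.74), against 2.78% of all features. None had an unadjusted p below 0.05 there, and DESeq2 and limma called 0. In brain alone 4 of 8 hepatocyte features were higher in females, hpx (3.55), PLG (2.72) and 2 named c3 (3.63 and 2.59), though the list summed to 50.61 and 160.45 FPKM in female and 51.27 and 57.89 in male brain. There MBP was also higher (3.91) and ENO2 lower (-2.7). The part of vessels, leukocytes and these other cell types in the hemoglobin differences was not tested.

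Outside the members, the named features most like them were sought over the 16 libraries, by Pearson r of log2 CPM with the mean of the members. First came BLVRB (TRINITY_DN141219_c0_g1) with r of 0.89 and rho of 0.806, a flavin and biliverdin reductase known to be abundant in mammalian red cells. The next were snrnp70 (r = 0.863), MT-ND5 (0.855), MT-ND6 (0.853), FBXW2 (0.842), KRT15 (0.84), mt-co3 (0.839), mt-co2 (0.838), mt-atp6 (0.838) and hic2 (0.836). With cahz left out of the mean, BLVRB was first again (r = 0.899). Against the mean of the hemoglobins cahz itself had r of -0.43, and 13869 of 16270 features had a higher r.

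BLVRB stood at 42.08 and 66.01 FPKM in female and 6.97 and 15.07 in male brain. In muscle it stood at 12.48 and 26.76 in females and 2.86 and 8.93 in males, and in liver at 48.21 and 15.63 against 16.94 and 7.91, which overlapped. Its mean sex difference over these tissues was 2.36 ± 0.4 (adjusted p = 0.0019), smaller in size than that of the hemoglobins. In each of the 3 female tissues the library with more hbaa also had more BLVRB. BLVRB was picked here for its likeness to the members over these same libraries, so these values are not independent of that choice.

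**Figure D5:**
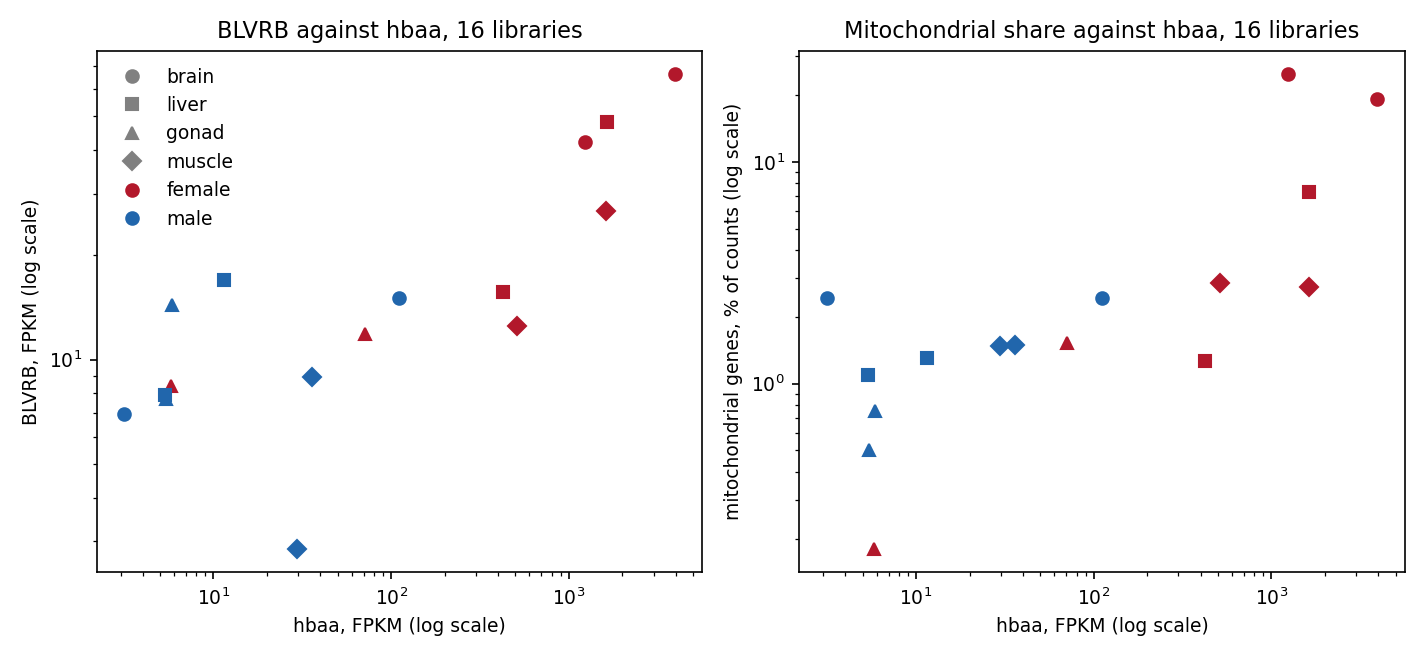
FPKM of BLVRB (left) and share of mitochondrially encoded genes among listed counts in percent (right) against FPKM of hbaa, all on log scales, 1 point per library (shape: tissue, colour: sex). Female brain 2 is highest in both hbaa (3941.09) and BLVRB (66.01), and the female brain libraries reach 19.23 and 24.76% mitochondrial counts against 2.42 and 2.44% in male brain.

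Other properties of the libraries also differed between the sexes, most in brain and muscle. The 11 mitochondrially encoded features took 19.23 to 24.76% of listed counts in female and 2.42 to 2.44% in male brain, and 2.72 to 2.84% against 1.48 to 1.5% in muscle. In liver the sexes overlapped, at 1.26 to 7.3% and 1.09 to 1.3%. The 50 most abundant features took 29.2 to 37.0% in female brain against 9.3 to 9.8% in male brain, and 44.2 to 49.5% in female muscle against 18.1 to 30.8% in male muscle, but 37.2 to 38.1% and 34.2 to 35% in liver. Genes under 800 bases, as both hemoglobins are, took 14.6 to 15.9% in female and 6.0 to 6.6% in male brain, and 20.3 to 24.0% in female and 9.2 to 12.1% in male muscle. In liver these overlapped, at 11.7 to 20.3% and 11.5 to 13.2%. Features within 20% of the length of hbaa had a median sex difference of 0.62 in brain, 0.19 in liver and 0.02 in muscle, so the difference of hbaa less that median was 5.48, 7.09 and 5.79. For hbb1 the same values were 4.4, 5.43 and 4.58. For cahz they were -0.84, -0.57 and -0.7, by its listed length. With libraries scaled by total fragments in place of TMM, the median difference over all features of the first 8 comparisons moved from -0.1 to 0.12 to a span of -0.81 to 1.01. The part of the mitochondrial share, of the most abundant features and of gene length in these results was not tested.

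Other carbonic anhydrases were few. CA5B, a mitochondrial form, was lower in female than in male liver (-2.19 ± 0.53, adjusted p = 0.046) and higher in liver than in the mean of the other tissues (2.51). Its mean sex difference over brain, liver and muscle by edgeR was -0.87 ± 0.3 (adjusted p = 0.038), where 36% of all features passed. By edgeR it was not called between the sexes in brain (-0.59), gonad (-1.03) or muscle (0.17). On FPKM limma called CA5B lower in females in each of the 4 tissues. The 2 features described as carbonic anhydrase 14, TRINITY_DN138511_c0_g2 and TRINITY_DN138511_c0_g3, were higher in female than in male gonad (2.35 ± 0.81, adjusted p = 0.028, and 1.4 ± 0.4, adjusted p = 0.011). In that comparison 47.1% of all features passed, and limma on FPKM called neither higher. TRINITY_DN138511_c0_g2 stood at 11.82 and 3.95 FPKM in females against 2.11 and 4.94 in males, which overlapped. For TRINITY_DN138511_c0_g3 the values were 30.08 and 31.87 against 13.7 and 21.38, with no overlap.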

How the data were processed

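The authors deposited 1 table with an expected count and an FPKM per assembled gene and library. Counts were estimated with RSEM, per the submitters' processing notes, whose version, like the strand setting, is not given in the sources used here. Columns were matched to the 16 samples by title. The protocol speaks of 24 libraries, and 16 further columns of counts and FPKM, which match none of these samples, were not used. At least 94.1% of a library's expected counts were whole. Gene names are the GN field of the Swiss-Prot match, else the first KEGG name, so close paralogs may share reads.

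Expected counts were rounded and tested in edgeR 4.0.16 (two-sided quasi-likelihood F test, TMM factors 0.623 to 1.845, no filter, 1 mean per group, 8 residual degrees of freedom, threshold 0.05). A total of 9659504 to 16641667 fragments per library was worked out by dividing counts by FPKM (bins of 0.8%), and the table lists 51.4 to 80.7% of it. Shares carry exact Clopper-Pearson 95% intervals. Alternatives were DESeq2 1.42.0, limma 3.58.1 on log2(FPKM + 1) and log2(FPKM + 0.1), other scalings, a filter on low counts, each tissue alone, a replicate block and leaving out each library. The SE is the difference divided by the square root of F. The tests were checked on simulated data.

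Members and lists were chosen with earlier results of these data known. Members were to be named in every comparison, with up to 20 listed genes past the threshold. Listed genes are here mostly counted. The mean sex difference over 3 tissues, the gonad interaction and the adjustment for length were added after the values were seen. Likeness used log2 CPM with a prior count of 2, and the 10 named features with the highest r are given.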

Additional observations from a re-analysis of the deposited data

Results flagged for a closer look

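The sex difference of cahz in gonad was tested against that elsewhere: gonad minus the mean of brain, liver and muscle came to 1.4 ± 0.41 by the edgeR interaction test (adjusted p = 0.019), in a comparison chosen after the values were seen. It came from 0.67 in gonad and a mean of -0.73 in the other 3 tissues. The call ended without any 1 of the 4 gonad libraries, and with libraries scaled by total fragments (1.14, adjusted p = 0.064), where the value in gonad was -0.03, and its cause was not tested.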

How the results depend on the processing

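The mean sex differences of hbaa, hbb1 and cahz over brain, liver and muscle, and the lower hbaa and hbb1 of gonad, kept their direction and call in each alternative run and in each fit without 1 library. Other calls depended on the setting, and the cause was not tested. With libraries scaled by total fragments, cahz became -1.44 between the sexes in brain, -0.03 in gonad and -1.31 in muscle, -0.39 (brain), -0.3 (liver), 1.05 (gonad) and -0.35 (muscle) against other tissues, and 0.15 and 1.14 in the liver and gonad interactions; hbaa became 5.13 between the sexes in muscle, -0.08 in liver and 1.21 in muscle, and hbb1 1.26 in muscle. With limma at a pseudocount of 1 and 0.1, cahz became -1.58 and -1.62 (sexes, brain), -1.54 and -1.57 (sexes, muscle), -0.59 and -0.6 (brain), -0.32 and -0.32 (liver), 1.26 and 1.28 (gonad), -0.35 and -0.36 (muscle) and 0.04 and 0.04 (liver interaction). The calls of all 3 members in brain and of both hemoglobins in muscle against other tissues ended. There hbaa became 4.76 (sexes, muscle, pseudocount 1), 1.94 and 1.94 (brain) and 1.52 and 1.61 (muscle), and hbb1 1.62 and 1.62 (brain) and 1.3 and 1.31 (muscle). DESeq2 gave hbb1 5.65 (sexes, liver), 4.64 (sexes, muscle) and 1.71 (brain), and hbaa 3.39 (sexes, gonad) and 5.77 (sexes, muscle). Each tissue alone gave cahz -1.06 in brain and hbaa 7.21 in liver and 3.23 in gonad.

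Counts of features called between the sexes were 453 in liver, against 300 with total fragments, 1686 by DESeq2, 199 and 209 by limma and 1 with liver alone. In muscle they were 481, against 2108, 1464, 1437 and 1485, and 0 with muscle alone by edgeR. The liver interaction gave 42, against 486 by DESeq2 and 17 and 14 by limma.

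Replicate numbers did not pair the samples by the labels, and deviations of same-numbered libraries correlated from -0.31 to 0.59 over 12 pairs of groups, above 0.1 in 9 of them, with 0.19 to 0.59 among males and -0.31 to 0.23 among females. The replicate block gave 690 calls between the sexes in liver and 86 in the liver interaction. It gave hbb1 6.14 (sexes, liver, adjusted p = 0.026), 4.68 (sexes, muscle, 0.047), 1.33 (brain, 0.093), 1.95 (liver, 0.022) and -4.06 (gonad interaction, 0.031), and changed no other call of a member.

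Leaving out 1 library gave these ranges. Calls between the sexes numbered 1774 to 3484 (brain), 40 to 2764 (liver), 4905 to 6050 (gonad) and 37 to 410 (muscle), and 10 to 132 in the liver interaction, 3718 to 7431 in the mean and 3653 to 6342 in the gonad interaction. Between the sexes, hbb1 ranged from 4.08 to 8.81 in brain, hbaa from 5.68 to 8.13 and hbb1 from 4.12 to 6.42 in liver, and hbaa from 0.57 to 4.2 and hbb1 from -0.17 to 2.64 in gonad. Against other tissues, hbaa ranged from 0.1 to 2.68, hbb1 from -0.13 to 2.24 and cahz from -0.87 to -0.62 in brain, and hbaa from -0.04 to 1.39, hbb1 from 0.66 to 2.02 and cahz from 0.19 to 0.6 in liver. They were -0.13 to 0.03 for cahz in gonad, and 1.31 to 2.67 for hbaa, 1.23 to 2.51 for hbb1 and 0.16 to 0.62 for cahz in muscle. The liver interaction of cahz ranged from -0.75 to 0.07, and the gonad interaction from -5.76 to -2.13 for hbaa, -5.28 to -2.47 for hbb1 and 1.24 to 1.57 for cahz. In males hbaa rests on as few as 14 counts (male brain 1), so its proportion to hbb1 is imprecise there.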
